A study of Homo sapiens with 12 samples.

Results

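Genes that mark early neural and neuronal cells were followed in human embryonic stem cells labelled as ZNF263 knockout or ZNF263 overexpression. The 10 genes are the rows of the deposited count table named OTX2, PAX6, SOX1, SOX11, NES, PTPRZ1, NCAM1, DCX, MAP2 and TUBB3, out of 27130 genes in all. Of these 10 genes, 9 passed the filter on low counts and were tested among 15437 genes. SOX1 was too low to be tested. Poly(A) RNA was sequenced from H1 (WA01) cells, an established human embryonic stem cell line, in 4 groups of 3 libraries each. KO + ZIC2 cells carried a homozygous knockout of the zinc finger transcription factor ZNF263 and also overexpressed ZIC2, a zinc finger factor active in early neural development. ZNF263 OE cells overexpressed ZNF263, with no knockout in their label. KO cells carried the homozygous knockout alone, and WT cells carried no labelled change. The library names of the KO and WT groups hold the tag vec, and those of the ZNF263 OE group do not. All KO and KO + ZIC2 library names share 1 further tag that no WT or ZNF263 OE name holds, and its meaning is not given. A difference particular to cells with that tag cannot be told apart from the knockout. The sources used here do not say if the knockout cells are 1 clone or if replicate libraries are from separate cultures. A p-value here thus reflects the spread among these libraries alone, and that spread may be technical.

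During the first steps of neural development, pluripotent cells give rise to neuroectoderm and then to neural progenitors, which later produce neurons. OTX2 and SOX11 are transcription factors active in the epiblast and in neural tissue, while PAX6 and SOX1 turn on in human cells as they take a neural fate. NES (nestin) and PTPRZ1 are products of progenitor cells, and NCAM1, DCX, MAP2 and TUBB3 are adhesion and cytoskeleton proteins used as markers of young neurons. Several of them are also transcribed in undifferentiated stem cells, so a level in this line does not by itself mark a neural cell. In bulk RNA, fewer cells of a type and less RNA per cell cannot be told apart.

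The libraries held 17175183 to 21804410 counts each, except KO replicate 1 with 43464609 counts. ZNF263 averaged 32.3 ± 3.15 CPM (counts scaled to library size with TMM factors) in KO + ZIC2 cells, 240 ± 18 CPM in ZNF263 OE cells, 31.1 ± 0.128 CPM in KO cells and 39.2 ± 1.35 CPM in WT cells (SD, n = 3 each). The labels do not give the site of the knockout edit, so counts over the whole gene do not check the knockout label. ZIC2 averaged 2040 ± 175 CPM in KO + ZIC2 cells, 212 ± 4.67 CPM in ZNF263 OE cells, 156 ± 3.81 CPM in KO cells and 209 ± 3.74 CPM in WT cells. Reads of an introduced copy and of the cells' own gene were not separated. The 12 listed markers of pluripotent stem cells all passed the filter. Their summed level in RPKM (CPM divided by gene length) was 2230 to 2250 in KO + ZIC2, 2250 to 2280 in ZNF263 OE, 2330 to 2340 in KO and 2190 to 2210 in WT libraries. POU5F1 counts for little in this sum, at 62.8 CPM but 3.23 RPKM in WT cells, because its deposited length is large. For NANOG these values were 80.1 CPM and 38.1 RPKM. The POU5F1 part of the sum is thus uncertain. Transcription factors that drive neuron formation were near 0, with 4 counts of NEUROG1, 12 of NEUROG2 and 2 of NEUROD1 over all 12 libraries. HES5, a Notch target of neural progenitors, had 10 counts. Some other listed genes of neurons and progenitors were far above these. RBFOX3 had 5139 counts, SYP 4640, SYN1 4139 and FABP7 5972 over all 12 libraries, all named after their values were seen.

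The promoters of the 4 genes with the largest differences in KO cells are shown because ZNF263 and ZIC2 both bind DNA and these genes moved in opposite directions. Each window holds 250 bases before and 50 bases after an annotated start, from the RefSeq table of assembly GRCh38.p14, and the start listed first for the gene is given. MAP2 has 3 listed starts, TUBB3 has 2, and PTPRZ1 and NES have 1 each. The MAP2 window is chr2:209661246-209661545 on the plus strand, the PTPRZ1 window chr7:121872911-121873210 on the plus strand, the NES window chr1:156677358-156677657 on the minus strand, and the TUBB3 window chr16:89921675-89921974 on the plus strand. Capitals mark GGGAGGA or its reverse complement TCCTCCC, a core of published ZNF263 motifs.
MAP2: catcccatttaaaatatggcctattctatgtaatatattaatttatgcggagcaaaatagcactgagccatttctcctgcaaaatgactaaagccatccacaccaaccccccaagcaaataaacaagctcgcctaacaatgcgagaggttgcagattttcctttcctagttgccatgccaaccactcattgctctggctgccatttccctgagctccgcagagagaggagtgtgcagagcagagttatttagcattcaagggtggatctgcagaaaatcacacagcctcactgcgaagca
PTPRZ1: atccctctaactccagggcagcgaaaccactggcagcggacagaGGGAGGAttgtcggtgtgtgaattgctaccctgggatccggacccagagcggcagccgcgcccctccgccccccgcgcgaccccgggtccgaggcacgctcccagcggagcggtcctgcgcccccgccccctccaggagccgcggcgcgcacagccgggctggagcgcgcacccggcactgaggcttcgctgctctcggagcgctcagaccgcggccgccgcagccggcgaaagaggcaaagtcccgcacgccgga
NES: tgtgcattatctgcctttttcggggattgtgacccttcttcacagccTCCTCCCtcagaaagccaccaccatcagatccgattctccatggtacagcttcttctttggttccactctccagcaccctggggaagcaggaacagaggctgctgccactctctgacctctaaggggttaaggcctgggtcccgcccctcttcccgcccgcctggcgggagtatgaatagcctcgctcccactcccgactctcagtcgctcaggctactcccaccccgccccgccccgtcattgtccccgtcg
TUBB3: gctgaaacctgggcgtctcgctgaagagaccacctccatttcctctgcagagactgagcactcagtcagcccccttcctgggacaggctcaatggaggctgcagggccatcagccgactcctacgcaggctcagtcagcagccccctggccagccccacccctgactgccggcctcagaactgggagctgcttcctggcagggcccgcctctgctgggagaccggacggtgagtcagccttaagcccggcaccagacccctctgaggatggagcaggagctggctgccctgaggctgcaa

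GGGAGGA, searched on both strands, was in the PTPRZ1 and the NES window and in no window of MAP2 or TUBB3. Over the 8 genes that the table holds it was in 5 of 22 windows, namely 1 of 2 for OTX2, 1 of 9 for PAX6, and the single windows of SOX1, NES and PTPRZ1. In the whole table, 18.1% of 35116 windows hold it. CCTGCTG, a ZIC-type core, searched on both strands as CCTGCTG or CAGCAGG, was in none of the 22 windows and is in 10.5% of all windows. These are matches of letters, with no binding measured. SOX11 and NCAM1 were not matched in the table.

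Levels differed among the 10 genes by more than 3 orders of magnitude, and their order was the same in every group. Per length, TUBB3 was highest at 127 ± 6.18 RPKM in KO + ZIC2, 89.7 ± 2.60 in ZNF263 OE, 133 ± 5.35 in KO and 95.3 ± 2.90 RPKM in WT cells (SD, n = 3 each). NES came next, then PTPRZ1, OTX2, SOX11, MAP2, NCAM1, DCX and PAX6. SOX1 was lowest at 0.0393 ± 0.0243 RPKM in KO + ZIC2, 0.0681 ± 0.0446 in ZNF263 OE, 0.037 ± 0.0351 in KO and 0.042 ± 0.016 RPKM in WT cells. The ranges of neighbours in this order overlapped only for PTPRZ1 and OTX2, and only in KO + ZIC2 and KO libraries. In KO cells PTPRZ1 had 26.9 ± 2.96 RPKM and OTX2 had 26.3 ± 1.11 RPKM, while in WT cells PTPRZ1 had 45.1 ± 2.84 RPKM and OTX2 had 27.3 ± 1.03 RPKM. Summed over the 10 genes, the level was 289 to 304 RPKM in KO + ZIC2, 249 to 256 in ZNF263 OE, 286 to 295 in KO and 253 to 256 RPKM in WT libraries. Most of that sum is TUBB3 and NES.

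**Figure D1:**
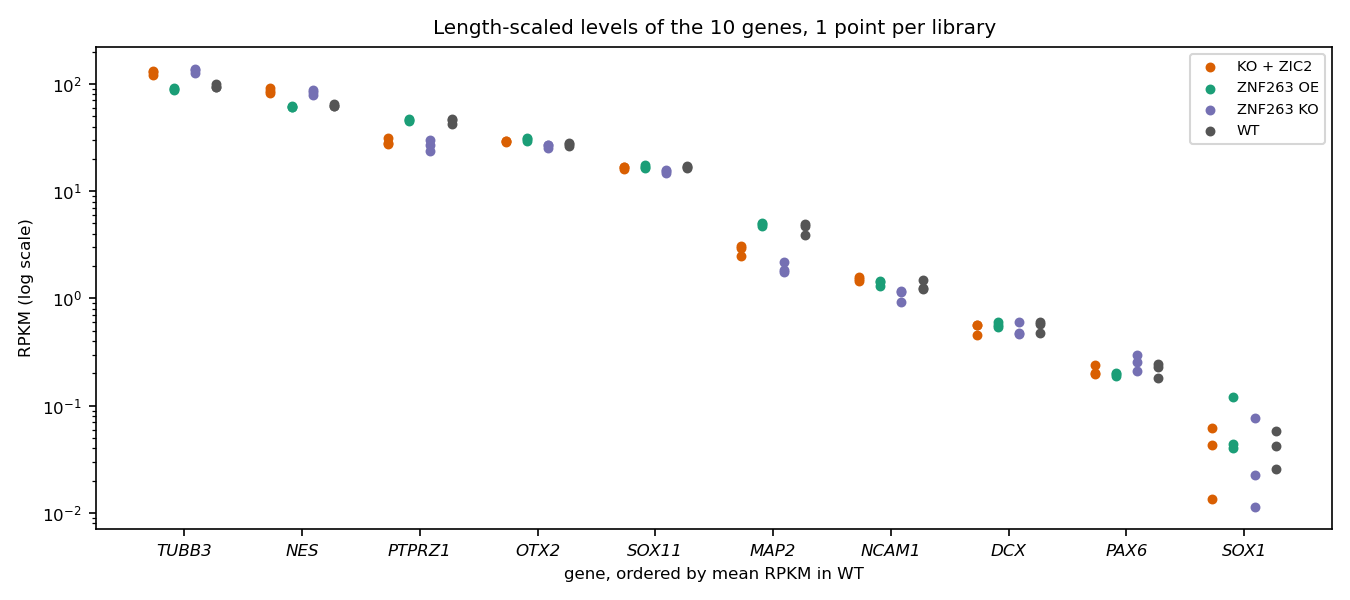
Level of each of the 10 genes in RPKM on a log axis, 1 point per library, for KO + ZIC2, ZNF263 OE, KO and WT cells, with genes ordered by their mean in WT. TUBB3 and NES sit highest and SOX1 lowest in all 4 groups, and the KO + ZIC2 and KO points of MAP2 and PTPRZ1 lie below those of WT.

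Among the transcription factors, differences were small. OTX2, a homeobox factor of the epiblast and the anterior neural plate, lies at chr14:57267425-57277194 on the minus strand (hg19). OTX2 measured 71.7, 70.0 and 72.3 CPM in KO + ZIC2 libraries, 72.3, 74.9 and 75.9 CPM in ZNF263 OE libraries, 61.4, 66.5 and 65.6 CPM in KO libraries and 67.1, 64.2 and 69.2 CPM in WT libraries. All libraries of KO + ZIC2 and of ZNF263 OE were above all libraries of KO and of WT, while KO and WT overlapped. SOX11, a SoxC factor of progenitors and immature neurons, is a single-exon gene at chr2:5832799-5841517 (hg19). SOX11 measured 148, 139 and 146 CPM in KO + ZIC2, 147, 153 and 142 CPM in ZNF263 OE, 136, 128 and 137 CPM in KO and 151, 145 and 144 CPM in WT libraries. The KO libraries were lowest and did not overlap those of another group.

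PAX6, a paired-box factor of the neural plate and eye field, lies at chr11:31806340-31839509 on the minus strand (hg19), with 30 to 105 counts per library. PAX6 measured 1.93, 1.88 and 2.28 CPM in KO + ZIC2, 1.80, 1.89 and 1.91 CPM in ZNF263 OE, 2.45, 2.00 and 2.80 CPM in KO and 1.73, 2.19 and 2.33 CPM in WT libraries. ZNF263 OE lay below KO in all libraries, and the other pairs of groups overlapped. SOX1, a SoxB1 factor of committed neuroectoderm, is a single-exon gene at chr13:112721913-112726020 (hg19), and had 1 to 9 counts per library. Pooled over 3 libraries, SOX1 had 9 counts in KO + ZIC2, 16 in ZNF263 OE, 11 in KO and 10 in WT cells. Scaled to library size, the ratio of ZNF263 OE to WT was 1.56 (exact 95% interval 0.667 to 3.85) and that of KO to WT 0.753 (0.29 to 1.98). The ratio of KO + ZIC2 to KO was 1.24 (0.455 to 3.3), that of KO + ZIC2 to WT 0.935 (0.336 to 2.56) and that of ZNF263 OE to KO 2.08 (0.905 to 4.95). These intervals cover counting error only, and no difference in SOX1 was detectable at this depth.

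The progenitor proteins moved in opposite directions in the knockout groups. NES, an intermediate filament protein of neural progenitors, lies at chr1:156638556-156647189 on the minus strand (hg19). NES measured 512, 459 and 480 CPM in KO + ZIC2, 341, 347 and 341 CPM in ZNF263 OE, 470 (replicate 1), 440 and 486 CPM in KO and 345, 344 and 360 CPM in WT libraries. All 6 libraries with the knockout were above all 6 without it. PTPRZ1, a receptor-type tyrosine phosphatase of radial glia that binds pleiotrophin, lies at chr7:121513159-121702090 (hg19). PTPRZ1 measured 230, 227 and 258 CPM in KO + ZIC2, 380, 371 and 376 CPM in ZNF263 OE, 243, 195 and 222 CPM in KO and 342, 386 and 375 CPM in WT libraries. All 6 libraries with the knockout were below all 6 without it.

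The neuronal genes split as well. MAP2, which binds and stabilises microtubules in dendrites, lies at chr2:210288771-210598834 (hg19). MAP2 measured 31.0, 24.9 and 29.6 CPM in KO + ZIC2, 49.6, 49.9 and 47.0 CPM in ZNF263 OE, 17.6, 18.5 and 21.9 CPM in KO and 39.2, 49.3 and 47.1 CPM in WT libraries. KO libraries were lowest, KO + ZIC2 libraries lay above them without overlap, and both were below every ZNF263 OE and WT library. TUBB3, a neuron-enriched beta-tubulin that is also made in pluripotent cells, lies at chr16:89988417-90002505 (hg19). TUBB3 measured 265, 259 and 241 CPM in KO + ZIC2, 174, 185 and 181 CPM in ZNF263 OE, 255, 276 and 268 CPM in KO and 198, 188 and 187 CPM in WT libraries. As for NES, every library with the knockout was above every library without it.

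NCAM1, a cell adhesion molecule of neural tissue, lies at chr11:112831969-113149158 (hg19). NCAM1 measured 12.9, 12.4 and 13.6 CPM in KO + ZIC2, 11.2, 12.4 and 12.2 CPM in ZNF263 OE, 9.93, 7.96 and 9.89 CPM in KO and 10.5, 12.8 and 10.6 CPM in WT libraries. KO libraries were below all others, and KO + ZIC2 overlapped WT. NCAM1 shares 576 exon bases with NCAM1-AS1 and 550 with LOC101928847 on the other strand. The kit named in the labels does not mark strand, but these genes had 9 and 23 counts over all libraries, against 2840 for NCAM1. DCX, which binds microtubules in migrating neurons, lies at chrX:110537007-110655460 on the minus strand (hg19). DCX measured 4.42 to 5.51 CPM in KO + ZIC2, 5.29 to 5.88 CPM in ZNF263 OE, 4.48 to 5.82 CPM in KO and 4.62 to 5.81 CPM in WT libraries, and all groups overlapped WT.

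**Figure D2:**
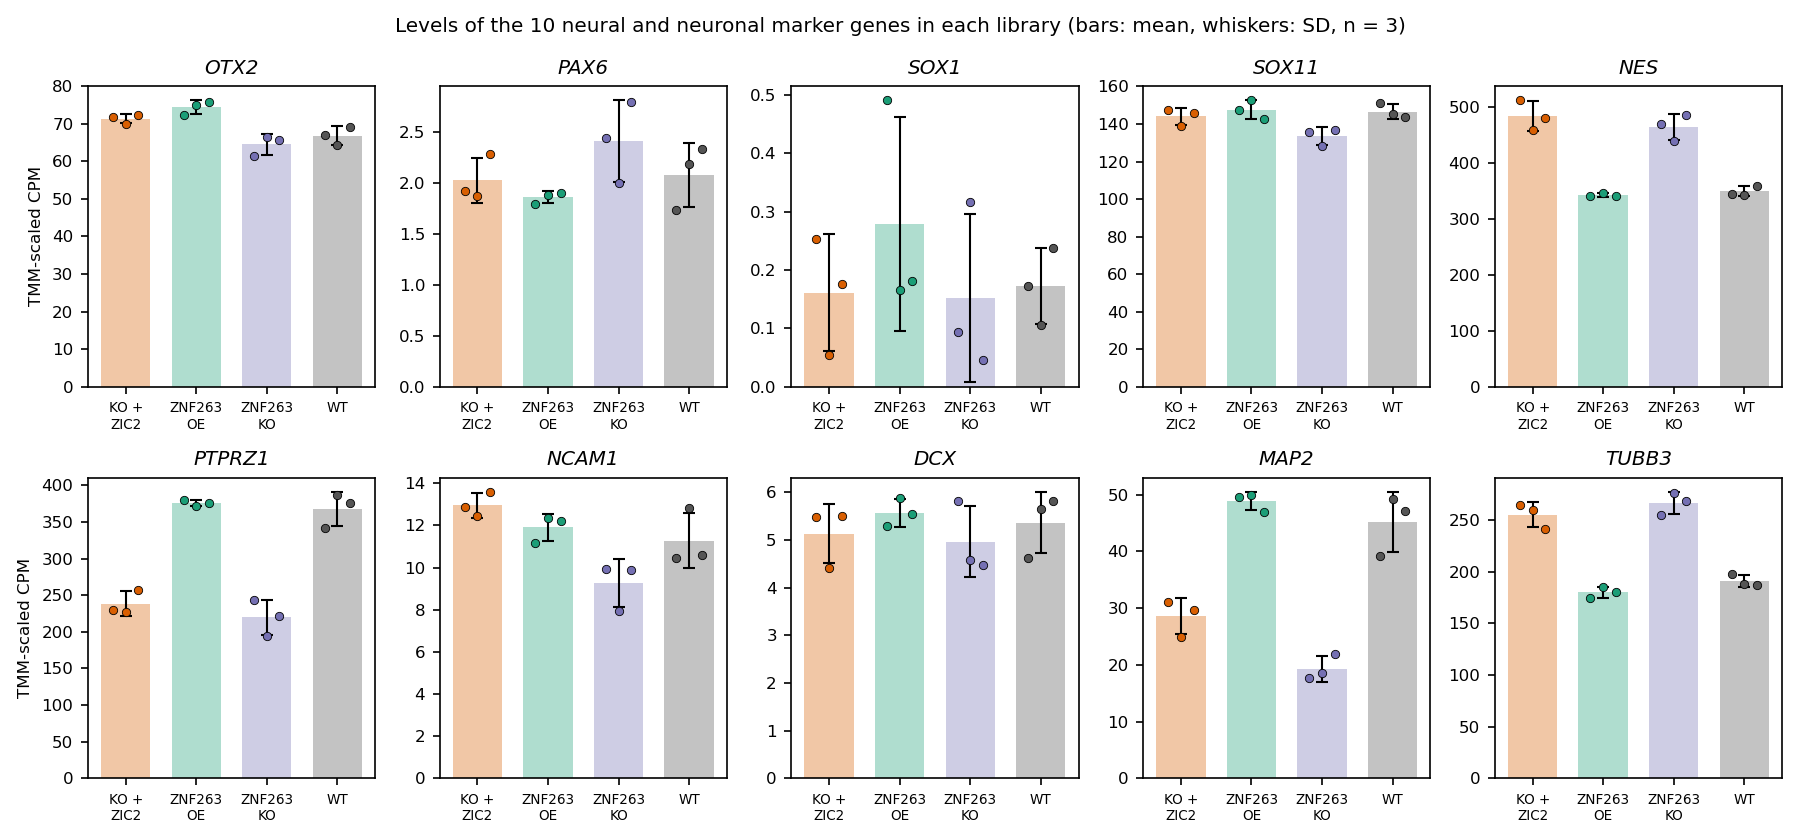
TMM-scaled CPM of each of the 10 genes in KO + ZIC2, ZNF263 OE, KO and WT cells (points: libraries, bars: means, whiskers: SD, n = 3). NES and TUBB3 stand higher and PTPRZ1 and MAP2 lower in both knockout groups than in WT, and MAP2 and NCAM1 stand higher in KO + ZIC2 than in KO.

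Knockout cells were first compared with WT cells, which asks what changes with the ZNF263 knockout. NES and TUBB3 rose, and MAP2, PTPRZ1, NCAM1 and SOX11 fell, so that 6 of 9 tested genes were called by the quasi-likelihood test of edgeR at a Benjamini-Hochberg adjusted p under 0.05. Of all 15437 tested genes 38.6% were called in this comparison, 20% higher and 18.5% lower, so a call is common here. The KO and WT libraries did not overlap for these 6 genes, against 46.7% of all tested genes. MAP2 fell most, to 19.3 ± 2.27 CPM in KO against 45.2 ± 5.32 CPM in WT cells, which is a log2 difference of -1.24 (SE 0.09, adjusted p = 1.68e-10). PTPRZ1 fell to 220 ± 24.1 CPM in KO against 368 ± 23.2 CPM in WT cells (-0.74, SE 0.06, adjusted p = 2.53e-09). MAP2 and PTPRZ1 passed a change of at least 1.5-fold, which 4.98% of all tested genes did with a call. TUBB3 had 266 ± 10.7 CPM in KO against 191 ± 5.82 CPM in WT cells (0.48, SE 0.04, adjusted p = 8.01e-09), and NES had 465 ± 23.3 CPM against 350 ± 8.73 CPM (0.41, SE 0.04, adjusted p = 7.11e-08). NCAM1 differed by -0.26 (SE 0.10, adjusted p = 0.0336) and SOX11 by -0.13 (SE 0.04, adjusted p = 0.0118). OTX2 (-0.06, 95% interval -0.15 to 0.04), PAX6 (0.21, -0.15 to 0.57) and DCX (-0.07, -0.34 to 0.19) were not called. The median log2 fold change of the 9 genes was -0.08 against -0.01 for all tested genes, and the median of its absolute size was 0.26 against 0.17.

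Log2 fold changes in this comparison moved with the GC content of the genes, with a Spearman coefficient of 0.425 over 14696 genes, which are not independent replicates. The transcripts of TUBB3 (62.4% GC) and NES (59.3%) are among the GC-richest of the 10 genes, and those of PTPRZ1 (40.6%) the poorest. With offsets that removed each library's trend with GC content and length, MAP2 was at -1.16, PTPRZ1 at -0.55, NES at 0.35 and TUBB3 at 0.32, and all 4 stayed called, but PTPRZ1 no longer passed 1.5-fold. SOX11 lost its call (-0.05, edgeR adjusted p = 0.28). NCAM1 lost its call without KO replicate 2 (edgeR adjusted p = 0.123) or without WT replicate 2 (0.226), and by DESeq2 (0.0535).

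Cells that overexpressed ZNF263 were compared with WT cells next. None of the 9 tested genes was called by the edgeR test, where 0.764% of all tested genes were. At an unadjusted p under 0.05 there was 1 of the 9, OTX2, and 1630 of all 15437 genes. OTX2 had 74.3 ± 1.86 CPM in ZNF263 OE against 66.8 ± 2.51 CPM in WT cells, a log2 difference of 0.15 (SE 0.05, edgeR adjusted p = 0.141). The 4 genes that moved furthest in KO cells had intervals that include 0 here. MAP2 was at 0.11 (95% interval -0.06 to 0.27), PTPRZ1 at 0.03 (-0.09 to 0.15), NES at -0.03 (-0.11 to 0.06) and TUBB3 at -0.09 (-0.17 to 0.002). The libraries of the groups did not overlap for OTX2 and TUBB3, 2 of 9 genes, against 19.4% of all tested genes. DESeq2 also called none of the 9. Log2 fold changes here had a Spearman coefficient of 0.254 with GC content. TUBB3 was called lower with the GC and length offsets (-0.13, edgeR adjusted p = 0.0133), and OTX2 was called higher in a fit to these 6 libraries alone (0.15, adjusted p = 0.0292).

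ZIC2 overexpression in knockout cells was compared with knockout cells alone, which asks what ZIC2 adds in the knockout cells. MAP2, NCAM1 and OTX2 rose, 3 of 9 tested genes, and none fell. Of all tested genes 8.34% were called, 4.99% higher and 3.35% lower. The libraries did not overlap for 4 of 9 genes, these 3 and SOX11, against 21.8% of all tested genes. MAP2 had 28.5 ± 3.18 CPM in KO + ZIC2 against 19.3 ± 2.27 CPM in KO cells (SD, n = 3 each), a log2 difference of 0.58 (SE 0.09, edgeR adjusted p = 0.000132). NCAM1 had 13.0 ± 0.59 CPM against 9.26 ± 1.13 CPM in KO cells (0.46, SE 0.09, edgeR adjusted p = 0.00206). OTX2 had 71.3 ± 1.16 CPM against 64.5 ± 2.71 CPM in KO cells (0.15, SE 0.05, edgeR adjusted p = 0.0401). The OTX2 call was lost in 9 of 13 alternatives, with adjusted p up to 0.216 when KO replicate 1 was left out. NES (0.06, 95% interval -0.03 to 0.14) and TUBB3 (-0.06, -0.15 to 0.03) were not called, and neither were SOX11 (0.11, 0.02 to 0.19), PTPRZ1 (0.11, -0.01 to 0.24), PAX6 (-0.27, -0.63 to 0.10) and DCX (0.004, -0.27 to 0.28). With the GC and length offsets SOX11 (0.12, edgeR adjusted p = 0.0311) and PTPRZ1 (0.12, adjusted p = 0.0239) were called as well, making 5 higher. The share of all tested genes called was then 12.6%. In this comparison the Spearman coefficient of log2 fold change with GC content was 0.006 before the offsets and -0.104 after them. Without KO replicate 1, PTPRZ1 was at 0.19 and called (adjusted p = 0.0371).

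KO + ZIC2 cells set against WT cells gave 4 calls among the 9 genes, where 37.6% of all tested genes were called, 20.3% higher and 17.3% lower. NES (0.47, SE 0.04, edgeR adjusted p = 1.19e-08) and TUBB3 (0.42, SE 0.04, adjusted p = 8.47e-08) were higher in KO + ZIC2 cells, at 484 ± 26.7 against 350 ± 8.73 CPM and at 255 ± 12.4 against 191 ± 5.82 CPM. MAP2 (-0.67, SE 0.09, edgeR adjusted p = 2.49e-06) and PTPRZ1 (-0.63, SE 0.06, adjusted p = 3.93e-08) were lower, at 28.5 ± 3.18 against 45.2 ± 5.32 CPM and at 238 ± 17.0 against 368 ± 23.2 CPM. MAP2 and PTPRZ1 passed 1.5-fold here, which 5.82% of all tested genes did with a call. The libraries did not overlap for these 4 genes and OTX2, 5 of 9, against 47.3% of all tested genes. The log2 fold changes of this comparison had a Spearman coefficient of 0.444 with GC content. With the GC and length offsets TUBB3 was at 0.25, PTPRZ1 at -0.43 and MAP2 at -0.57, all still called, and neither PTPRZ1 nor MAP2 passed 1.5-fold. NCAM1 was at 0.20 (95% interval -0.001 to 0.40) and OTX2 at 0.09 (-0.002 to 0.19), and neither was called. Without WT replicate 2, NCAM1 was at 0.29 and called (adjusted p = 0.0347). SOX11 (-0.02), PAX6 (-0.05) and DCX (-0.07) were not called. The comparisons share their WT, KO or KO + ZIC2 libraries with each other, so their values are only given side by side.

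ZNF263 OE cells were also set against KO cells, the widest contrast in ZNF263 level. Here 7 of 9 tested genes were called, where 36.5% of all tested genes were, 17.5% higher and 19% lower. The libraries did not overlap for 8 of 9 genes, all but DCX, against 47.3% of all tested genes. MAP2 (1.35, SE 0.09, edgeR adjusted p = 2.25e-11), PTPRZ1 (0.77, SE 0.06, adjusted p = 8.91e-10), NCAM1 (0.34, SE 0.09, adjusted p = 0.00632), OTX2 (0.21, SE 0.04, adjusted p = 0.000755) and SOX11 (0.14, SE 0.04, adjusted p = 0.00839) were higher in ZNF263 OE cells. TUBB3 (-0.56, SE 0.04, adjusted p = 4.02e-10) and NES (-0.44, SE 0.04, adjusted p = 2.02e-08) were lower. MAP2 and PTPRZ1 passed 1.5-fold, which 6.24% of all tested genes did with a call. PAX6 was lower in every ZNF263 OE library but was not called (-0.38, edgeR adjusted p = 0.0968), and DCX was at 0.12 (95% interval -0.14 to 0.39). SOX11 lost its call with the GC and length offsets (adjusted p = 0.0893) and without ZNF263 OE replicate 2 (adjusted p = 0.0586). Log2 fold changes in this comparison had a Spearman coefficient of -0.314 with GC content. Over the 13 alternatives, which include the offsets, TUBB3 was between -0.59 and -0.45 and PTPRZ1 between 0.62 and 0.85.

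**Figure D3:**
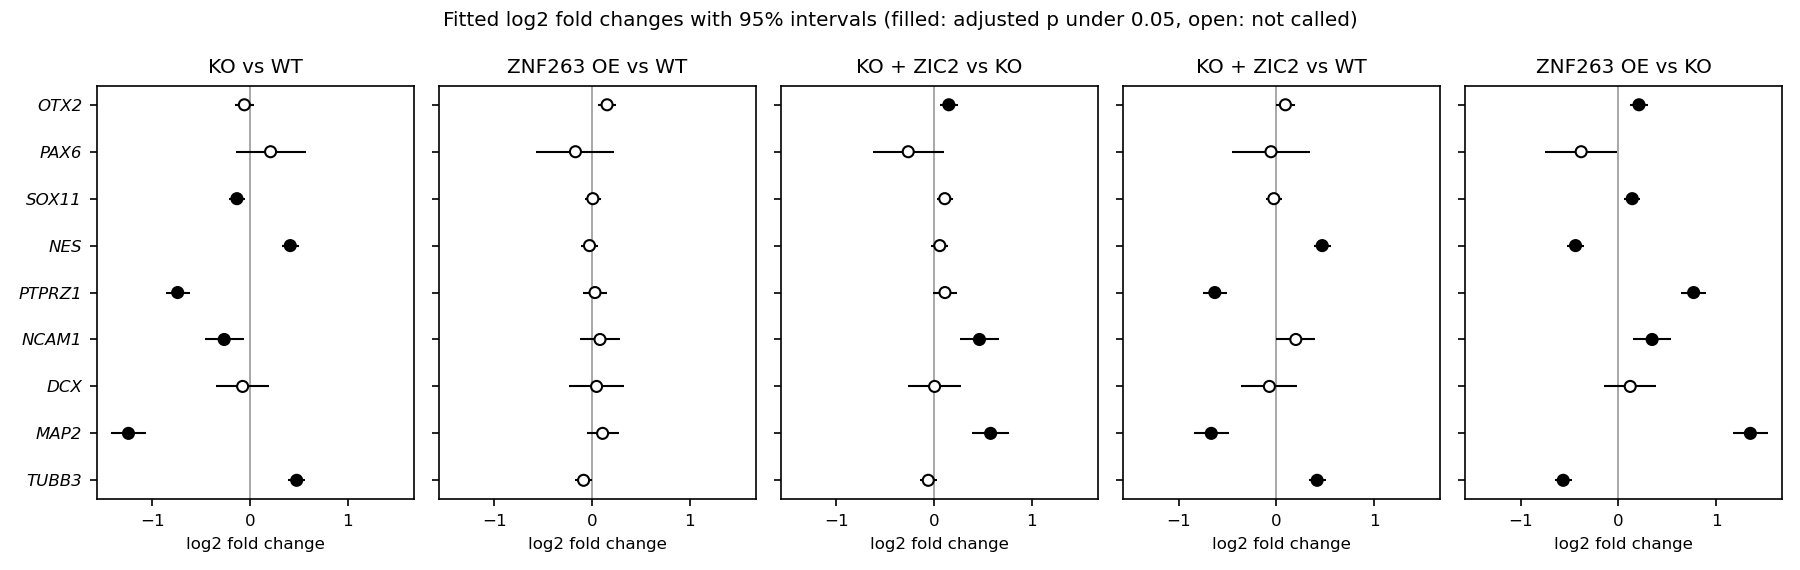
Log2 fold changes of the 9 tested genes with 95% intervals in 5 comparisons that share libraries (filled points: adjusted p under 0.05). MAP2 runs from -1.24 in KO against WT to 1.35 in ZNF263 OE against KO, and all points of ZNF263 OE against WT are open.

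Other genes of neural progenitors, from a list of 28 of which 20 were tested, were mostly lower in KO than in WT cells. This list and those below were chosen with earlier results of these data known, so their shares called are descriptions. By the edgeR test 3 of the 20 progenitor genes rose and 11 fell, which is 70% called, beside 38.6% of all tested genes (20% higher, 18.5% lower). Of those that fell, LHX2, SIX3 and SIX6, named after their values were seen, had few counts. Their counts pooled over libraries were 27, 18 and 14 in KO and 51, 39 and 42 in WT cells. The list had a median log2 fold change of -0.26 against -0.01 for all tested genes. ZNF521, a zinc finger factor of early neural fate, had 9.26 ± 0.849 CPM in KO against 17.1 ± 1.86 CPM in WT cells (-0.88, SE 0.09, edgeR adjusted p = 8.98e-08). FEZF1, a forebrain zinc finger factor, had 7.46 ± 1.13 against 12.7 ± 1.10 CPM (-0.81, SE 0.11, adjusted p = 3.92e-06). POU3F1, a POU factor of the neural plate, was at -0.49 (SE 0.06, adjusted p = 3.68e-06), and MSI1, an RNA-binding protein of neural stem cells, at -0.35 (SE 0.06, adjusted p = 3.71e-05). The 3 that rose were VIM (0.58, SE 0.06, adjusted p = 1.31e-07), which encodes the filament partner of nestin, CDH2 (0.37, SE 0.04, adjusted p = 6.82e-07), which encodes N-cadherin, and SOX3 (0.47, SE 0.07, adjusted p = 8.28e-06). VIM, like NES, is a filament gene and moved in the same direction. The GC and length offsets left 3 higher and 11 lower, where 29.6% of all tested genes were called. None of the 20 was called in ZNF263 OE against WT cells, where 0.764% of all tested genes were.

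Of the 20 progenitor genes, 2 rose and 3 fell in KO + ZIC2 against KO cells, which is 25% called beside 8.34% of all tested genes. MSI1 had 41.5 ± 1.44 CPM in KO + ZIC2 against 28.9 ± 1.27 CPM in KO cells (0.53, SE 0.06, edgeR adjusted p = 5.11e-07), and ZNF521 had 13.9 ± 1.09 against 9.26 ± 0.849 CPM (0.57, SE 0.09, adjusted p = 0.000219). PROM1 (-0.39), CDH2 (-0.16) and VIM (-0.20) fell. In ZNF263 OE against KO cells 13 of the 20 rose and 3 fell, and the median was 0.44 against 0.004 for all tested genes. That is 80% called, beside 36.5% of all tested genes (17.5% higher, 19% lower). Those that rose with the smallest adjusted p were ZNF521 (1.16, SE 0.09, edgeR adjusted p = 4.85e-10), MSI1 (0.55, SE 0.06, adjusted p = 4.67e-08) and FEZF1 (1.01, SE 0.11, adjusted p = 9.41e-08).

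Of 27 other neuronal genes, 20 were tested. In KO against WT cells 6 rose and 2 fell, with a median of -0.09. This is 40% called, close to the 38.6% of all tested genes. With the GC and length offsets 6 rose and 4 fell, where 29.6% of all tested genes were called. GAP43, a growth cone protein, had 32.2 ± 0.731 CPM in KO against 20.8 ± 2.16 CPM in WT cells (0.64, SE 0.06, edgeR adjusted p = 7.75e-08). MAP1B, another microtubule-associated protein, was at 0.29 (SE 0.05, adjusted p = 4.08e-05) and so moved opposite to MAP2. MAP6, which stabilises microtubules, was at -0.77 (SE 0.21, adjusted p = 0.00503). In KO + ZIC2 against KO cells 2 rose and 5 fell, 35% called beside 8.34% of all tested genes. STMN2, a growth cone protein that binds tubulin, had 3.28 ± 0.81 CPM in KO + ZIC2 against 0.916 ± 0.256 CPM in KO cells (1.93, SE 0.26, edgeR adjusted p = 1.31e-05), while GAP43 fell (-0.29, SE 0.06, adjusted p = 0.00314). None of the 20 was called in ZNF263 OE against WT cells, where 0.764% of all tested genes were.

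Relatives and partners of the 10 genes, 24 of 25 tested, had 12 genes higher and 3 lower in KO against WT cells, with a median of 0.23. This is 62.5% called, beside 38.6% of all tested genes (20% higher, 18.5% lower). With the GC and length offsets 10 rose and 3 fell, with a median of 0.14, where 29.6% of all tested genes were called. Values of single genes below are without the offsets. Among the listed relatives were the beta-tubulins, the family of TUBB3. TUBB6 had 302 ± 14 CPM in KO against 179 ± 2.56 CPM in WT cells (0.75, SE 0.04, edgeR adjusted p = 9.81e-13), and TUBB2B had 526 ± 18.4 against 385 ± 7.01 CPM (0.45, SE 0.04, adjusted p = 1.25e-08). TUBB2A, TUBB4A and TUBB4B, named after their values were seen, were called higher too, at 0.52, 0.30 and 0.24. The deposited counts are of uniquely aligned reads, so near-identical tubulin copies such as TUBB2A and TUBB2B are uncertain. The entry of TUBB spans several chromosome 6 contigs and its counts are likewise uncertain. PTN, which encodes pleiotrophin, a ligand of PTPRZ1, had 45.6 ± 2.24 CPM in KO against 59.5 ± 3.44 CPM in WT cells (-0.39, SE 0.06, adjusted p = 2.51e-05). PTPRG, a phosphatase related to PTPRZ1, was at -0.27 (SE 0.06, adjusted p = 0.00118), and DCLK1, a relative of DCX, at -0.19 (SE 0.05, adjusted p = 0.00206). In KO + ZIC2 against KO cells 1 of the 24 rose and 5 fell, 25% called beside 8.34% of all tested genes. DCLK1 was higher (0.34, SE 0.05, edgeR adjusted p = 1.99e-05) and TUBB6 lower (-0.29, SE 0.04, adjusted p = 1.09e-05). TUBB4A was the only one of the 24 called in ZNF263 OE against WT cells (0.41, SE 0.08, adjusted p = 0.00628). This is 4.17% called, beside 0.764% of all tested genes.

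**Figure D4:**
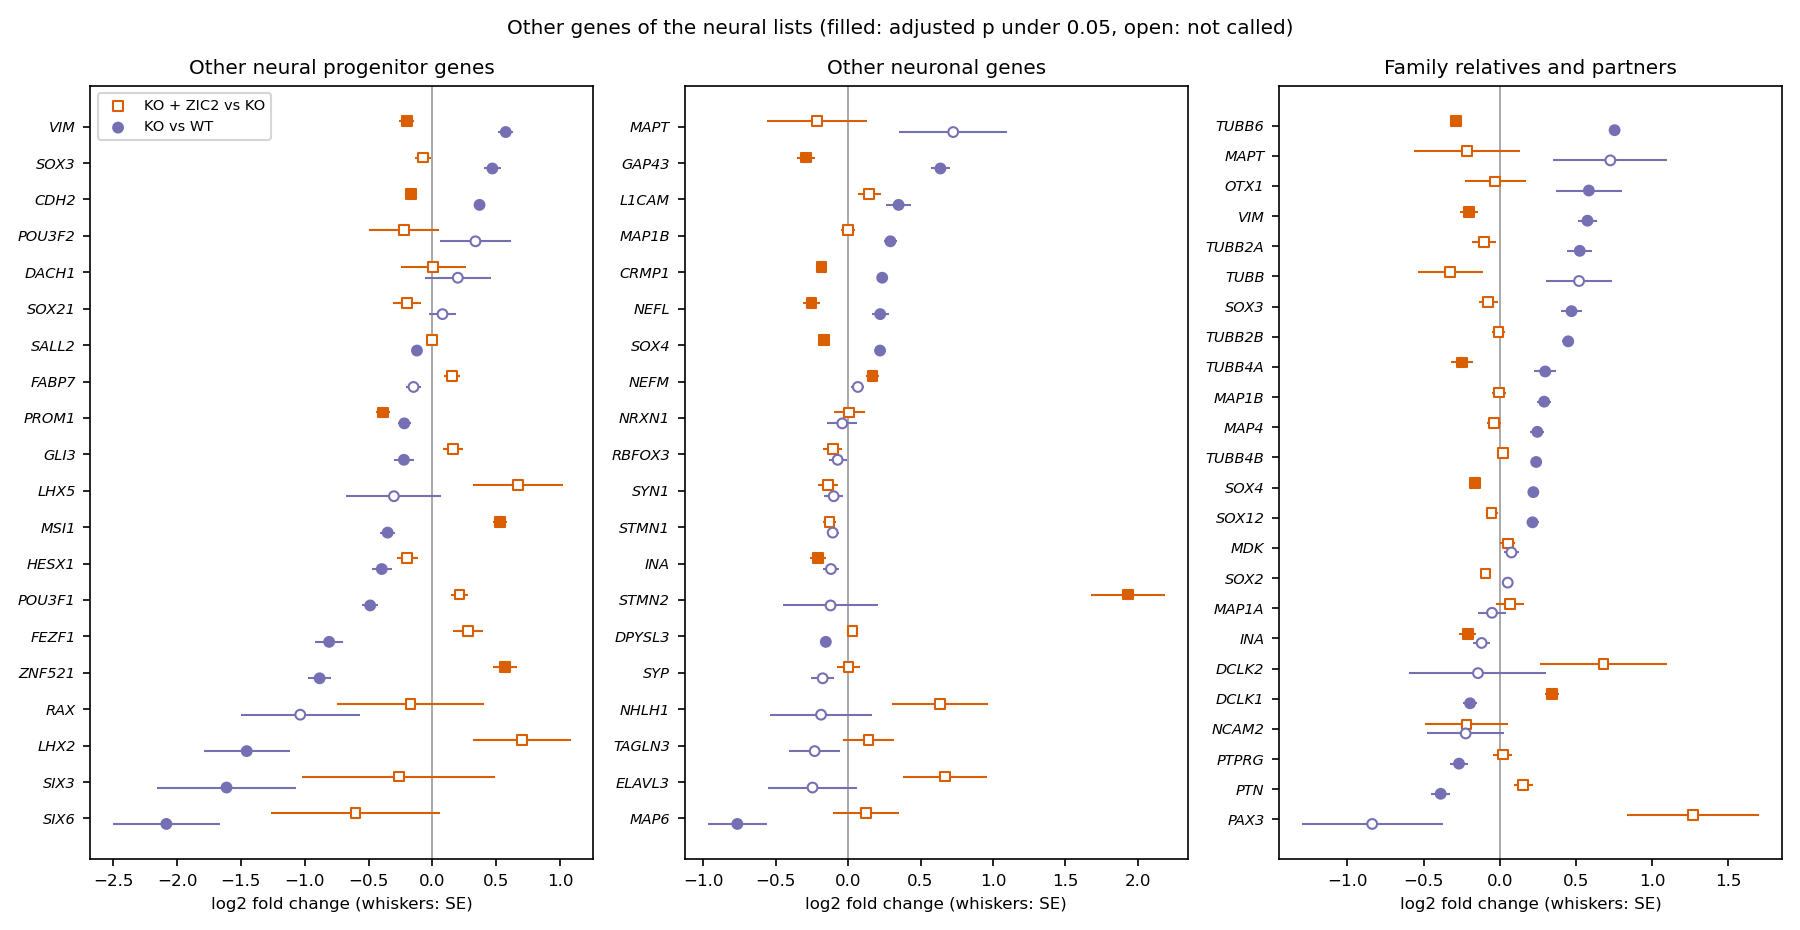
Log2 fold changes (points) with SE (whiskers) of the tested genes of the 3 other neural lists, in KO + ZIC2 against KO and in KO against WT cells (filled: adjusted p under 0.05). ZNF521 and MSI1 are lower in KO against WT and higher in KO + ZIC2 against KO, and the 2 comparisons share the KO libraries.

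Of the listed genes, 11 stand in more than 1 list. Markers of other cell types moved with the groups as well, and their part in the results above was not tested. Of the 12 pluripotency markers, 5 rose and 2 fell in KO against WT cells, and 3 fell in KO + ZIC2 against KO cells. These are 58.3% and 25% called, beside 38.6% and 8.34% of all tested genes. Of 10 neural crest markers, which overlap with neural genes in what they mark, 7 were tested. In KO against WT cells 2 of these rose, and in KO + ZIC2 against KO cells 3 rose and 1 fell, 28.6% and 57.1% called beside the same shares of all tested genes. NGFR had 16.3 ± 1.23 CPM in KO + ZIC2 against 6.73 ± 0.299 CPM in KO cells (1.27, SE 0.09, edgeR adjusted p = 1.91e-09), SNAI2 was at 1.70 (SE 0.18, adjusted p = 6.92e-07) and SOX9 at 0.72 (SE 0.09, adjusted p = 3.84e-06). The summed level of the list was 38.5 to 39.4 RPKM in KO + ZIC2, 29.8 to 30.4 in ZNF263 OE, 37.4 to 38.9 in KO and 31.6 to 31.9 RPKM in WT libraries. PAX7 had 23 counts and TFAP2B had 5 over all 12 libraries. Glial markers, 5 of 8 tested, summed to 22.3 to 25.4 RPKM in KO + ZIC2, 28.2 to 29.5 in ZNF263 OE, 24.3 to 24.7 in KO and 27.4 to 28.5 RPKM in WT libraries, with 32 counts of OLIG2 in all. Mesoderm and primitive streak markers, 5 of 9 tested, summed to 16.8 to 17.5 RPKM in KO + ZIC2, 24.8 to 26.0 in ZNF263 OE, 18 to 21.2 in KO and 23.1 to 23.8 RPKM in WT libraries. Most of that sum is KDR, at 13.9 ± 0.828 RPKM in KO + ZIC2, 23.2 ± 0.349 in ZNF263 OE, 16.4 ± 1.63 in KO and 21.3 ± 0.255 RPKM in WT cells. In KO against WT cells KDR fell (-0.37, SE 0.05, edgeR adjusted p = 1.25e-05), while PDGFRA (0.52, SE 0.12, adjusted p = 0.00198) and MIXL1 (0.80, SE 0.25, adjusted p = 0.0147) rose. Endoderm markers, 3 of 8 tested, summed to 6.99 to 7.45 RPKM in KO + ZIC2, 4.23 to 4.50 in ZNF263 OE, 7.58 to 8.88 in KO and 5.05 to 5.61 RPKM in WT libraries, with 3 counts of SOX17 in all. Trophoblast and amnion markers, 3 of 8 tested, summed to 4.56 to 5.16 RPKM in KO + ZIC2, 4.75 to 5.01 in ZNF263 OE, 3.49 to 4.33 in KO and 3.54 to 3.68 RPKM in WT libraries, with 9 counts of CDX2 in all. In KO against WT cells 1 glial marker fell, 2 endoderm markers rose, and 1 trophoblast marker rose, beside 38.6% of all tested genes called.

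Across the 12 libraries, the 9 tested genes followed each other in a few blocks. The coefficients that follow are descriptions, since the libraries of a group share their treatment. They were taken without the GC and length offsets, and the part of GC content in them was not tested. On log2 CPM, TUBB3 and NES had a Pearson r of 0.943, PTPRZ1 and MAP2 had 0.932, and PTPRZ1 and TUBB3 had -0.989. The GC content was 62.4% for TUBB3, 59.3% for NES, 40.6% for PTPRZ1, 47.3% for MAP2 and 43.7% for DCX. SOX11 followed MAP2 with 0.794. DCX had no coefficient above 0.546 with another of the 9 genes. Genes most alike in pattern were sought among those that averaged 5 CPM or more. Symbols of clone, locus, LINC, FAM, KIAA and open reading frame type were left out. TUBB3 was most like CSRP1 (0.993) and CNN1 (0.992), and NES most like ACLY (0.991) and FLNC (0.989). PTPRZ1 was most like DDX3X (0.991) and CHD9 (0.99), and MAP2 most like USP3 (0.981) and HNRNPA2B1 (0.977). NCAM1 was most like BACE1 (0.96) and COL9A1 (0.929), and OTX2 most like SLC29A1 (0.935) and OLFM1 (0.932). For SOX11 these were DDX42 (0.896) and HNRNPH3 (0.895), for PAX6 SYDE2 (0.896) and TIMM8A (0.875), and for DCX ASAP1 (0.9) and SMCR8 (0.888).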

How the data were processed

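Poly(A) RNA-seq of 12 H1 libraries was used, 3 per group. The authors deposited raw counts for each gene, with gene lengths and hg19 exon coordinates. The submitters' processing notes name STAR, featureCounts, DESeq2 and hg19, without versions. Per the file headers, only uniquely aligned reads were counted. Of 27130 genes, 3461 had no count.

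CPM used TMM-scaled library sizes, and RPKM divided these by the deposited length. The quasi-likelihood test of edgeR 4.0.16 (R 4.3.3) was fitted to all 12 libraries after filterByExpr, with group as the only term, which left 8 residual degrees of freedom. Adjusted p-values are Benjamini-Hochberg values over all 15437 genes of a comparison, called under 0.05. The fit was also run on simulated counts with the same spread for every gene and no GC trend. That run cannot show how the fit handles the unequal spread and the GC trend of these data. Replicates of a group differed beyond counting error (chi-square 1.37 to 9.82 per gene), so none was merged. GC content came from GENCODE v29 transcripts.

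The 10 genes, the gene lists and the tests were chosen with earlier results of these data known. All 10 genes are named. From each list, up to 4 genes higher and 4 lower per comparison, by adjusted p, could be named, and any others are marked. No set test was run. Alternatives were RLE factors, no filter, GC and length offsets, the replicate number as a term, fits to 2 groups, DESeq2 1.42.0 and leaving out each library.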

Additional observations from a re-analysis of the deposited data

How the results depend on the processing

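Of 45 fold changes (9 genes in 5 comparisons), 20 were called, and 16 of these kept direction and call in all 13 alternatives. The calls lost were SOX11 and NCAM1 in KO against WT, OTX2 in KO + ZIC2 against KO and SOX11 in ZNF263 OE against KO. NCAM1 in KO against WT was also lost in a fit to 2 groups (adjusted p = 0.0742) and with the replicate block plus GC and length offsets (0.0607), over a range of 0.0187 to 0.226.

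Genes called in ZNF263 OE against WT, 118 in the reported fit, were 220 without the filter, 236 with GC and length offsets, 232 with these and the replicate block, 431 in a fit to 2 groups, and 50 to 77 when any of its 6 libraries was left out. Genes called in KO + ZIC2 against KO, 1288 in the reported fit, were 1947 with the offsets, 1936 with offsets and block, and 842 to 1476 with 1 library left out, lowest without KO + ZIC2 replicate 1. Of the 9 genes, 1 was called in ZNF263 OE against WT with the offsets, with offsets and block, and in the 2-group fit, against 0 reported, and 5 in KO + ZIC2 against KO with the offsets, with or without the block, against 3. With 1 library left out, 5 to 6 of the 9 were called in KO against WT, 2 to 3 in KO + ZIC2 against KO, 4 to 5 in KO + ZIC2 against WT and 6 to 7 in ZNF263 OE against KO.

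Only uncalled fold changes changed sign. DCX in KO + ZIC2 against KO was at -0.0032 with RLE factors and -0.0055 without the filter. With the offsets, and with offsets plus block, DCX was at 0.0644 and 0.0576 in KO against WT and at 0.0912 and 0.0888 in KO + ZIC2 against WT, and SOX11 was at 0.0615 and 0.061 in KO + ZIC2 against WT. With 1 library left out, DCX in KO + ZIC2 against KO was between -0.0652 and 0.175. In KO + ZIC2 against WT, DCX was between -0.169 and 0.0254, SOX11 between -0.0489 and 0, and PAX6 between -0.171 and 0.0308. In ZNF263 OE against WT, DCX was between -0.0435 and 0.111, SOX11 between -0.0163 and 0.0325, and PTPRZ1 between -0.0196 and 0.0673. The causes were not tested.

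Replicate numbers did not pair the samples: 4 of 18 same-numbered pairs had a correlation of deviations above 0.1 (range -0.399 to 0.341 over 11009 genes), and 3 of 12 libraries correlated best with their own number. The replicate block alone changed no call of the 9 genes and gave 5845 called genes in KO against WT, 108 in ZNF263 OE against WT, 1244 in KO + ZIC2 against KO, 5691 in KO + ZIC2 against WT and 5509 in ZNF263 OE against KO. Depth limits SOX1, and to a lesser degree PAX6 and DCX.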
